A study of Mus musculus with 16 samples.

Results

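Regions closed only in CD4 single-positive (SP4) thymocytes are stretches of the genome with an ATAC-seq peak in double-negative (DN), double-positive (DP) and CD8 single-positive (SP8) thymocytes and none in SP4. They were selected on the peak calls themselves: peaks of the 4 stages were merged where they shared at least 1 bp, and a merged region was kept when it held DN, DP and SP8 peaks and no SP4 peak. The rule kept 4172 of 185978 merged regions (2.24%). ATAC-seq uses a transposase that inserts sequencing adapters into accessible DNA, so that reads pile up where chromatin is open. The 16 libraries came from sorted DN, DP, SP4 and SP8 cells of 4 wild type C57BL/6J mice aged 9 weeks. The authors called peaks on reads pooled over the 4 mice of a stage, so no value below has a replicate error. The DN list held 150139 peaks, the DP list 107110, the SP4 list 115074 and the SP8 list 104411. All peaks lay on the 19 autosomes and 0 on X or Y, so no member could lie on these 2 chromosomes. "Closed" means here that no peak was called, and signal under the threshold of the peak caller may be present.

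Thymocytes start as DN cells that lack both coreceptors, pass through a DP stage with CD4 and CD8 on the surface, and then lose either coreceptor as they become SP4 or SP8 cells. ThPOK, encoded by Zbtb7b, is needed for the CD4 lineage, and Runx3 is needed for the CD8 lineage and silences Cd4. E proteins, which bind E-boxes, and factors of the RUNX and ETS families occupy many regulatory elements of developing T cells.

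The plus strand of mm10 is printed below for 200 bp around the highest summit of 7 members. They were chosen after their values were seen, to show members with high peaks and members at genes with known roles in T cells. Capitals mark matches, on either strand, to the E-boxes CAGCTG and CAGGTG, to the RUNX motif TGTGGT and to the ETS motif AGGAAG. Neighbouring matches may touch or overlap. The Panx1 window (chr9:14953452-14953651) lies in an intron of another transcript, 48397 bp from Panx1, a channel protein and the nearest protein-coding gene. The Dennd4a window (chr9:64797533-64797732) is also intronic in another transcript, 13532 bp from its nearest protein-coding gene. The windows of Arhgap15 (chr2:44323978-44324177), Runx3 (chr4:135131205-135131404) and Lef1 (chr3:131176323-131176522) lie in introns of these genes. The Rasgrp1 window (chr2:117352387-117352586) is intergenic and upstream of the gene. The Zbtb7b window (chr3:89379773-89379972) lies wholly in coding sequence.
Panx1: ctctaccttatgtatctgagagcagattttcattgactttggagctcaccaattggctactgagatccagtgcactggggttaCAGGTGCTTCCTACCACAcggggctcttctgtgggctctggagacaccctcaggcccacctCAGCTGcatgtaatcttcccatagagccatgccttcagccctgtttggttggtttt
Dennd4a: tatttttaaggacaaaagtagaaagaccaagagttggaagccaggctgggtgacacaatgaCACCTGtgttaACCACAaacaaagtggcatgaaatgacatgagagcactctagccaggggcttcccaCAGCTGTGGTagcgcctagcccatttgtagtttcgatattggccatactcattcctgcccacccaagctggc
Arhgap15: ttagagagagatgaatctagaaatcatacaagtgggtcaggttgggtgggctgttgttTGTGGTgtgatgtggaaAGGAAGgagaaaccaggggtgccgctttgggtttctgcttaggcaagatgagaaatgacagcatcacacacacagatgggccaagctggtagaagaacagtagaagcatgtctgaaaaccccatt
Rasgrp1: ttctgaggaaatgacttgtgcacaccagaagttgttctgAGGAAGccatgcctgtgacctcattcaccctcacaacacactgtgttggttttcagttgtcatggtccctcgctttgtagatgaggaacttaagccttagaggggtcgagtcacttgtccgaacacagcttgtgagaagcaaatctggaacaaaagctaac
Zbtb7b: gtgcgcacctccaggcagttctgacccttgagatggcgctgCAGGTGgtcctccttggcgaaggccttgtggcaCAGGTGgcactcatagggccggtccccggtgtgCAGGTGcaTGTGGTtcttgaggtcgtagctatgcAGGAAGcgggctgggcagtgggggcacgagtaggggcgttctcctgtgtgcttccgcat
Runx3: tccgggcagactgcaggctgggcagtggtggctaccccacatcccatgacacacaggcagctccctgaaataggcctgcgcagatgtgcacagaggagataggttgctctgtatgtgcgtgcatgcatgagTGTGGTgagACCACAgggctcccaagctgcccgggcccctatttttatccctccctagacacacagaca
Lef1: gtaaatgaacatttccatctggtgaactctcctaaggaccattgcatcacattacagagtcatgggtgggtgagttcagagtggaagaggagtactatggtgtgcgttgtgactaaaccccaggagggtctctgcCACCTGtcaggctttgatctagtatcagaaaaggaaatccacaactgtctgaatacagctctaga

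Of all 185978 merged regions, 18.3% held CAGCTG in such a window, 23.3% held CAGGTG, 25.2% held TGTGGT and 40.2% held AGGAAG. A match is thus common in these windows, and it describes the letters and not the binding of a factor. The Panx1 window held 1 match to each of the 4 motifs. In the Dennd4a window, a CAGCTG and a RUNX match overlapped, and a second RUNX match lay near a CAGGTG match. The Zbtb7b window held 3 matches to CAGGTG, 1 to RUNX and 1 to ETS.

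Among the 67541 regions with DN, DP and SP8 peaks, 4172 had no SP4 peak (6.18%, 95% Wilson interval 6.00 to 6.36, counting error only). This share is fixed by the rule and is given as a description. In the reverse case, 5837 of 69206 regions with DN, DP and SP4 peaks had no SP8 peak (8.43%, 8.23 to 8.64). These 5837 regions are called closed only in SP8 below. The share with no SP4 peak was the lower of the 2 on 19 of 19 autosomes. It ran from 5.15% on chromosome 15 to 7.93% on chromosome 18. Regions absent at DP alone numbered 7539, those absent at DN alone 3286, and 63369 regions were called at all 4 stages. The regions closed only in SP4 were thus a small part of the regions with DN, DP and SP8 peaks, most of which had an SP4 peak as well.

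Peaks in these regions were low and narrow at the stages where they were called. Height is given as the fold enrichment of the peak over its local background and as the percentile of that ratio within the list of the same stage. By the median, DN peaks stood at the percentile 43.2, DP peaks at 32.8 and SP8 peaks at 23.7, and the median fold enrichment was 4.99, 4.21 and 3.93. In regions called at all 4 stages it was 73.5 in the DN list, 68.2 for DP, 69.4 for SP4 and 67.1 for SP8. Regions closed only in SP8 stood between these classes, at 50.9 for DN, 39.0 for DP and 29.5 for SP4. Regions absent at DP alone had a median of 42.96 for DN, and those absent at DN alone one of 28.1 for DP, so low peaks were common to classes that lack 1 stage. In both classes that lack 1 SP stage, the peak of the other SP stage was the lowest by the median. The median width was 269 bp, against 465 bp in regions called at all 4 stages. It was 265 bp in regions closed only in SP8, 264 bp in those absent at DP alone and 239 bp in those absent at DN alone, so narrow regions were common to all classes that lack 1 stage. Since the rule needs the absence of a call, heights depend on the rule and were not tested.

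**Figure D1:**
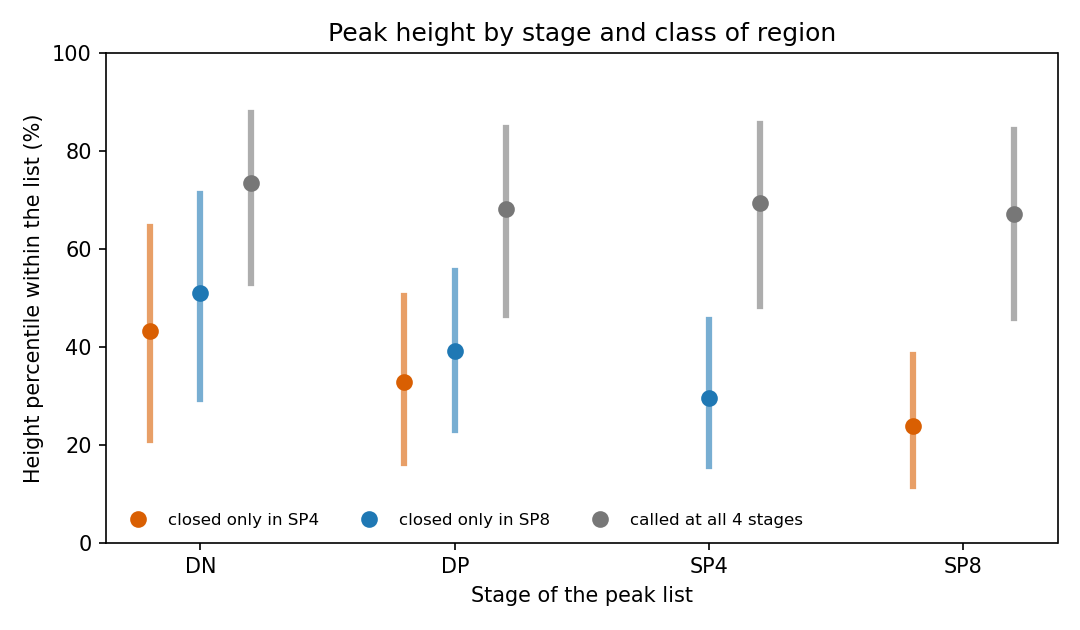
Height percentile of the peaks of 3 classes of region within the list of each stage. Points are medians and bars run from the 25th to the 75th percentile of regions. Medians of regions closed only in SP4 fall from 43.2 at DN to 32.8 at DP and 23.7 at SP8, below those of regions called at all 4 stages.

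Within single members, the order of the stages varied. The plot of height percentiles by class gives the spread at each stage. The highest percentile was at DN in 2308 members (55.3%), at DP in 1195 and at SP8 in 669. The lowest was at SP8 in 2224 members (53.3%). The order DN, DP, SP8 from high to low was the most frequent of 6, with 1466 members (35.1%), so no single order held for most members. Across members, Spearman's rho of the percentiles was 0.513 between DN and DP, 0.372 between DN and SP8 and 0.365 between DP and SP8, over 4172 regions of shared lists and base composition. Summits lay close together, with 90.2% of DN and DP summits and 88.8% of DN and SP8 summits within 100 bp of each other. These shares were about the same in regions called at all 4 stages, at 89.8% and 88.75%. In 4087 members a base was covered by peaks of all 3 stages, so few members arose by chaining of peaks that did not meet.

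Few members were high at all 3 stages. The lowest of the 3 percentiles had a median of 15.7, and it reached 25 in 1293 members, 50 in 177, 75 in 12 and 90 in 1. The plot of the 20 highest members by this measure shows the 3 percentiles of each. Of these 20, 16 were highest at DN and 13 lowest at SP8, and 18 had no SP4 peak within 500 bp. They lay in introns (11) or between genes (7), with 1 at an exon and 1 at a promoter. Most of the 20 thus lay outside promoters and exons. So did most of all members, with 46.4% in introns and 24.7% between genes.

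**Figure D2:**
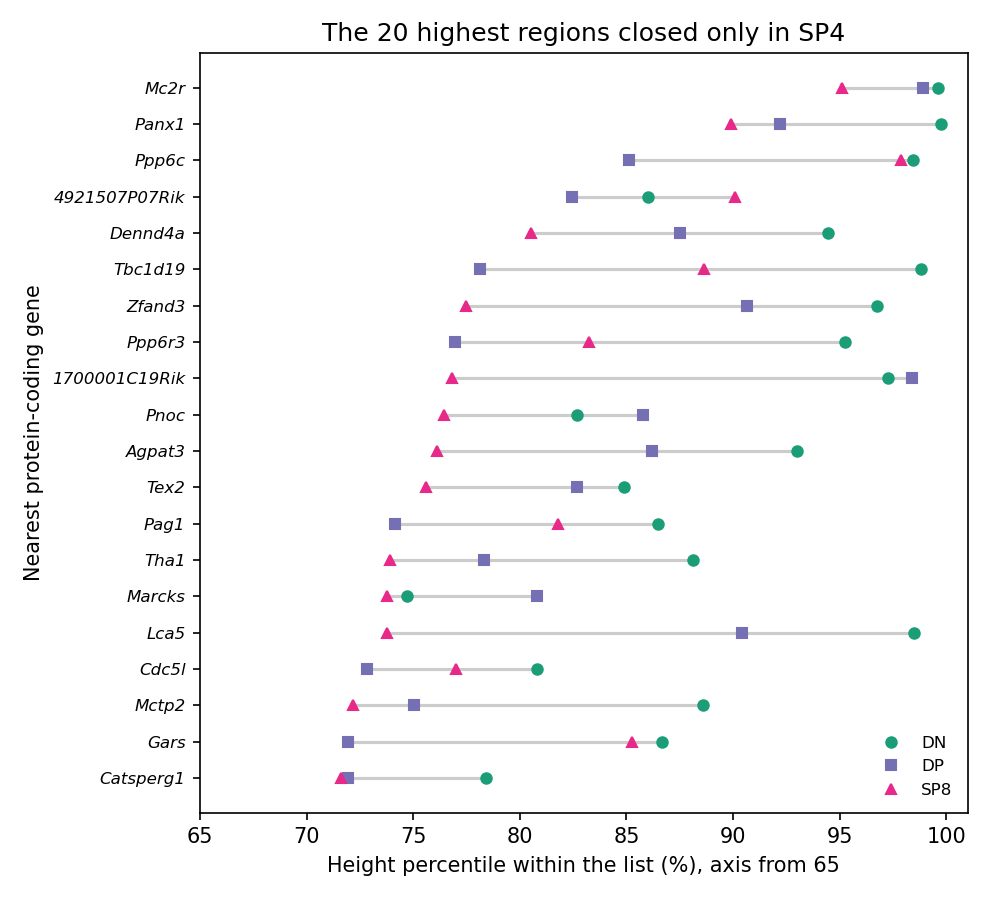
Height percentiles at DN, DP and SP8 of the 20 regions closed only in SP4 with the highest lowest-of-3 percentile, named by the nearest protein-coding gene. Each marker is the peak of a stage in its own list, the grey line spans the 3, and the axis starts at 65. The lowest marker runs from 95.1 at the top to 71.6 at the bottom.

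The highest member had its nearest protein-coding gene in Mc2r, the corticotropin receptor, at a distance of 436408 bp. Its DN, DP and SP8 peaks had the percentiles 99.6, 98.9 and 95.1, with a fold enrichment of 31.9, 28.5 and 23.1. The Panx1 member (chr9:14953287-14953731) followed, with 99.7, 92.2 and 89.9. The member nearest to Ppp6c, the catalytic subunit of protein phosphatase 6, reached 98.4, 85.1 and 97.9. These members were thus among the high peaks of 3 lists and had no call in the fourth. Another member lay inside Ppp6r3, a regulatory subunit of the same phosphatase, at 95.3, 77.0 and 83.3. The Dennd4a member (chr9:64797446-64797808) reached 94.4, 87.5 and 80.5, and its nearest SP4 peak was 1200 bp away. Inside Zfand3 the percentiles were 96.8, 90.7 and 77.5, and in an intron of Agpat3, an acyltransferase of phospholipid synthesis, they were 93.0, 86.2 and 76.1. Near Pag1, an adaptor that holds the kinase Csk at the membrane, they were 86.5, 74.1 and 81.8, with an SP4 peak 344 bp away. Coding sequence of Pnoc, the precursor of the neuropeptide nociceptin, held a member at 82.7, 85.8 and 76.4. The single promoter member among the 20 lay inside Gars, the glycyl-tRNA synthetase, at the start of a transcript not annotated as coding, with 86.7, 71.9 and 85.3.

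The share of regions with no SP4 peak fell with peak height at DN and DP. Where the mean of the DN and DP percentiles was under 10, 382 of 1545 regions with DN, DP and SP8 peaks had no SP4 peak (24.7%, 22.6 to 26.9). Where it was 90 or more, 39 of 10232 had none (0.381%, 0.279 to 0.521). The plot of this share against height shows a fall from each bin to the next. Regions with DN, DP and SP4 peaks lacked an SP8 peak in 20.01% of the lowest and 0.692% of the highest bin. In each bin from 20 up the share with no SP8 peak was above the share with no SP4 peak, and in the 2 bins under 20 it was below. By the SP8 percentile, the share with no SP4 peak fell from 31.2% under 10 to 0.119% at 90 or more. Absence of a call thus moved with height at the other stages, and the part of the calling threshold in this was not tested.

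**Figure D3:**
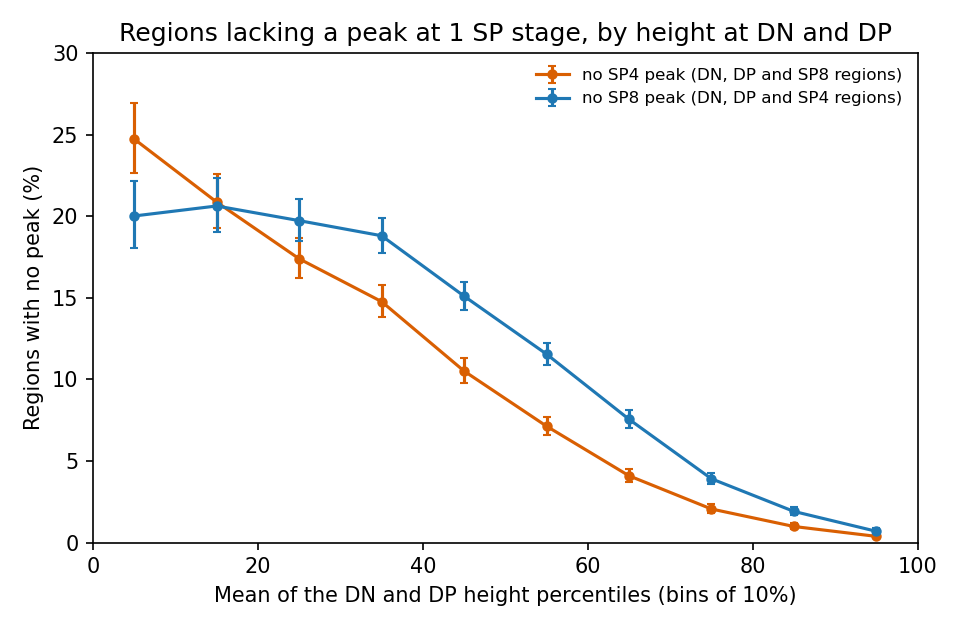
Share of regions with no peak at 1 SP stage against the mean of the DN and DP height percentiles, in bins of 10. Points are shares and bars are 95% Wilson intervals. The share with no SP4 peak falls from 24.7% to 0.381% and the share with no SP8 peak from 20.01% to 0.692%.

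SP4 peaks were often close by. The nearest SP4 peak lay at a median of 1549.5 bp from a region closed only in SP4, against 3837 bp from a region closed only in SP8 to the nearest SP8 peak. Within 500 bp there was an SP4 peak for 1132 members (27.1%), and for the reverse class an SP8 peak for 17.5%. These 1132 members were lower, with a median lowest percentile of 9.61 against 18.6 in the other 3040. They were also more often at a promoter, in 16.1% against 9.90%. Just inside the rule, a member on chromosome 4 (chr4:155018685-155018946) lay 2 bp from an SP4 peak, with percentiles of 58.1 at DN, 29.6 at DP and 6.46 at SP8. A member on chromosome 15 (chr15:52740401-52740800) lay 19 bp from one, at 88.3, 74.7 and 60.9. Just outside the rule, the region with the weakest SP4 call (chr16:21531023-21531272) had a −log10 q of 1.44 and a percentile of 2.20 at SP4, beside 79.1 at DN, 64.5 at DP and 27.5 at SP8. Regions on both sides of the rule thus included high peaks at DN and DP. In all, 1139 regions called at all 4 stages had an SP4 percentile under 5. Their median percentiles were 20.5 at DN, 16.1 at DP and 10.6 at SP8, below the 43.2, 32.8 and 23.7 of members.

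Position was not used by the rule. Members lay at a promoter, the 200 bp upstream of the transcription start site (TSS) of any annotated transcript, in 483 cases (11.6%, 10.6 to 12.6). The share depends on the definition, and was 19.3% with 1000 bp upstream, 7.33% with protein-coding transcripts and 5.56% for the summit. By the first definition it was 25.2% in regions called at all 4 stages, a difference of -13.6 points (-14.6 to -12.6) with the same direction on 19 of 19 chromosomes. Against 8.07% in regions closed only in SP8, it was higher by 3.51 points (2.32 to 4.72), on 15 of 19 chromosomes. Members thus stood between both classes. Like height means here a mean percentile of 20 to 60 over DN, DP and SP8 (SP4 for regions closed only in SP8). Regions were not matched inside this band, so differences in height may remain. Median widths there were 274 bp in members and 340 bp in regions called at all 4 stages. At like height the promoter shares were 10.7% in members, 15.99% in regions called at all 4 stages and 7.49% in regions closed only in SP8. The order held and the first gap was much smaller. A further 724 members (17.4%) overlapped an exon, 1935 (46.4%) an intron only, and 1030 (24.7%) lay between genes. Exons took 4.29 points more than in regions called at all 4 stages (3.14 to 5.50) and 3.53 points more than in regions closed only in SP8 (2.09 to 4.99).

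Distances to the nearest TSS gave the same order. The median was 4215.5 bp in members, 3146 bp in regions called at all 4 stages and 5945 bp in regions closed only in SP8. To protein-coding transcripts alone the median of members was 10446 bp. By the two-sided Kolmogorov-Smirnov test with Bonferroni correction over 2 pairs, members differed from regions called at all 4 stages (D = 0.149, n = 4172 and 63369 regions, p = 1.11e-75), with the larger median in members on 18 of 19 chromosomes. They also differed from regions closed only in SP8 (D = 0.0905, n = 4172 and 5837 regions, p = 1.79e-17), with the smaller median in members on 19 of 19. Regions are not replicates, so these p-values measure the spread between regions of pooled lists and not between mice. Among regions of like height, with a mean percentile of 20 to 60, the medians were 5042, 3721 and 6359 bp in the same order of classes. Median heights differed between places as well. Promoter members had a median SP8 percentile of 16.8 and intergenic members one of 26.5.

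The classes were close in median base composition but not in the share of windows rich in GC. The median GC share of the 200 bp summit windows was 53%, against 52.5% in regions called at all 4 stages and 51% in regions closed only in SP8. More than 60% GC was found in 14.9% of members, 18.8% of regions called at all 4 stages and 6.36% of regions closed only in SP8. Outside promoters these shares were 10.3%, 6.47% and 3.80%, and at like height 13.1%, 13.6% and 5.78%. The lower share of members than of regions called at all 4 stages thus turned outside promoters, while the higher share than in regions closed only in SP8 remained. At promoter members the median was 60%, and 241 of 483 were over 60%.

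In summit windows, members held E-box matches and the RUNX motif TGTGGT more often than regions called at all 4 stages did. CAGCTG was found in 24.0% of members (22.7 to 25.3) and 17.7% of regions called at all 4 stages, a difference of 6.24 points (4.93 to 7.59). CAGGTG was found in 28.5% and 22.1%, a difference of 6.32 points (4.94 to 7.75). Both differences had the same sign on 19 of 19 chromosomes. TGTGGT was found in 28.5% and 23.2%, a difference of 5.31 points (3.92 to 6.74) on 17 of 19. Outside promoters the difference was 3.26 points (1.74 to 4.81). This was not shared by the RUNX variant TGCGGT, found in 4.48% and 5.04%, a difference of -0.553 points (-1.17 to 0.138). In windows with 45 to 55% GC the difference of TGCGGT was -0.957 points (-1.62 to -0.155). Of 32 motifs searched, 6 were more frequent in members by an interval of the difference that leaves out 0, 13 were less frequent, and for 13 the interval held 0. The motifs named here were picked from the 32 after their values were seen.

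Against regions closed only in SP8, the RUNX motif TGTGGT was more frequent in members and the ETS motif AGGAAG less frequent. TGTGGT was found in 28.5% of members and 22.3% of regions closed only in SP8, a difference of 6.27 points (4.54 to 8.01) on 17 of 19 chromosomes. AGGAAG was found in 36.5% of members (35.1 to 38.0) and 52.8% of regions closed only in SP8 (51.5 to 54.1). The difference of -16.3 points (-18.2 to -14.4) held on 19 of 19 chromosomes and was the widest of the 32. The ETS motif of promoter type, CCGGAA, did not share it, with 4.84% and 4.04%, a difference of 0.799 points (-0.0142 to 1.64). On the DN summit its difference was 0.860 points (0.0520 to 1.70). The RUNX variant TGCGGT was more frequent in members, by 1.16 points (0.393 to 1.96), and by 0.332 points (-0.505 to 1.24) in windows with 45 to 55% GC. For the E-boxes the interval held 0, at -0.478 points (-2.17 to 1.23) for CAGCTG and -0.998 points (-2.79 to 0.808) for CAGGTG. In this comparison 7 motifs were more frequent in members, 8 less frequent, and for 17 the interval held 0. Windows with 45 to 55% GC gave 9.11 points for TGTGGT and -16.1 points for AGGAAG, so both differences were also found at like base composition. The motif AGGAAG was less frequent in members than in regions called at all 4 stages as well, by -4.19 points (-5.69 to -2.67). This fell to -2.06 points (-3.92 to -0.169) at like height and to -1.98 points (-3.74 to -0.193) for members with no SP4 peak within 500 bp, and outside promoters it was -6.51 points (-8.12 to -4.87), so its size depended on the setting and its direction did not.

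Other motifs placed members between, above or below the 2 classes. The SP motif GGGCGG was found in 11.8% of members, 17.6% of regions called at all 4 stages and 6.72% of regions closed only in SP8. Outside promoters its difference from regions called at all 4 stages was 0.641 points (-0.278 to 1.64), so the lower share of members was not found there. In windows with 45 to 55% GC the same difference was -1.44 points, against -5.85 points in all windows. The difference of GGGCGG from regions closed only in SP8 was 1.37 points in windows with 45 to 55% GC, against 5.08 points in all. The CTCF motif was found in 2.92%, 5.95% and 1.49%. The ROR motif, searched with N for any base as TNAGGTCA, was found in 3.43% of members, 2.38% and 2.23%, above both. The motif CTTTGA of TCF7 and LEF1 was found in 13.9%, 14.6% and 17.3%, and AGATAA of GATA3 in 5.92%, 6.88% and 8.05%. Members were lower than regions closed only in SP8 for both. They were lower than regions called at all 4 stages for AGATAA, by -0.961 points (-1.67 to -0.179) on 11 of 19 chromosomes. The interval of this difference held 0 in windows on the DN summit, at -0.553 points (-1.29 to 0.256). It did so as well for members with no SP4 peak within 500 bp, at -0.895 points (-1.71 to 0.0259). Against regions closed only in SP8, windows with 45 to 55% GC gave -1.95 points (-3.86 to 0.0188) for CTTTGA. For AGATAA they gave -1.77 points (-3.09 to -0.399), so at like base composition the interval held 0 for CTTTGA. Among all merged regions, 10.4% held the SP motif, 3.03% the CTCF motif, 2.63% the ROR motif, 15.96% CTTTGA and 8.07% AGATAA. The plot of motif differences shows 25 of the 32 motifs.

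**Figure D4:**
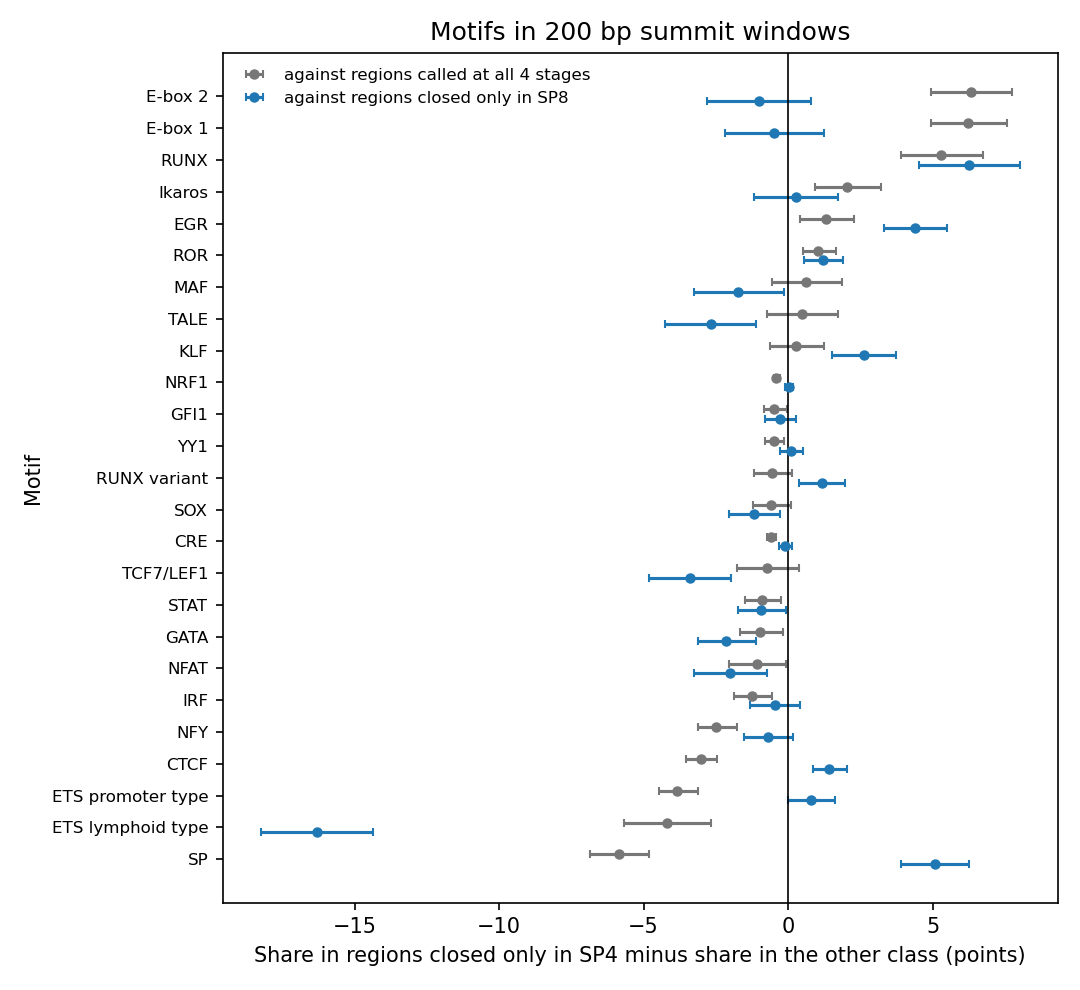
Difference in the share of 200 bp summit windows with a motif, in points, for regions closed only in SP4 minus regions called at all 4 stages (grey) or closed only in SP8 (blue). Points are differences, bars 95% Newcombe intervals, and the 25 motifs shown have an interval that leaves out 0 in at least 1 comparison. E-box 1 is CAGCTG and E-box 2 is CAGGTG, and the ETS motif of lymphoid type lies at -16.3 points against regions closed only in SP8.

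Matches to the RUNX motif TGTGGT and to the E-boxes also met in the same windows. These pairs, and the split of members by height, were chosen after the motif shares were seen. TGTGGT and CAGGTG were both present in 386 members (9.25%, 8.41 to 10.2), against 5.33% of regions called at all 4 stages and 6.53% of regions closed only in SP8. TGTGGT and CAGCTG were both present in 7.41%, 4.41% and 5.59%. Shares of pairs depend on the shares of the single motifs, and whether pairs met more often than these give was not tested. At least 1 of the E-box, RUNX and ETS motifs was in 74.8% of members, 70.2% of regions called at all 4 stages and 81.2% of regions closed only in SP8. Among members, the share with TGTGGT was higher in high members. It was 44.6% (37.5 to 52.0) in the 177 members with a lowest percentile of 50 or more and 24.98% (22.8 to 27.3) in the 1421 members under 10. This was not particular to TGTGGT, as CTTTGA was found in 23.7% (18.1 to 30.5) and 13.4% (11.8 to 15.3) of these members. By place, TGTGGT was found in 33.0% of intronic, 30% of intergenic, 23.2% of exonic and 15.3% of promoter members.

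Members were spread over many genes. They were assigned to 3124 protein-coding genes by the gene they lay in or nearest to, taking the nearest gene start where genes overlap, and 2438 genes had 1 member each. Inside protein-coding genes lay 2637 members (63.2%). Gm20388 had the most assigned members, 10, on a gene model of 4434882 bp. It was followed by Zmiz1, a coactivator of Notch1, with 9, and by B3gnt2, a glycosyltransferase, and Foxn3, a forkhead repressor, with 8 each. Nedd4l, a ubiquitin ligase, Bcl11b, a factor needed for commitment to the T lineage, and Prex1, an exchange factor for Rac, had 7 each. A tie of 10 genes had 6 each, and of these Agpat3, Mdga1 and Abr held the highest members. Of the regions with DN, DP and SP8 peaks inside the gene, members were 31 of 431 at Gm20388, 4 of 43 at Zmiz1, 5 of 17 at B3gnt2, 7 of 35 at Foxn3, 7 of 28 at Nedd4l, 1 of 21 at Bcl11b, 5 of 31 at Prex1, 6 of 28 at Abr, 5 of 10 at Agpat3 and 3 of 15 at Mdga1. Over all such regions the share is 6.18%. Gm20388, Zmiz1 and Bcl11b lie nearest to it, and the other genes lie well above it. All were taken for their number of members.

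Lists of genes with roles in thymocytes were read against the share of 6.18% over all regions with DN, DP and SP8 peaks. Within these genes or 10 kb of them, 138 of 2007 such regions were members (6.88%, 5.85 to 8.07), at 89 of 228 genes, and of the 9 lists, shown in the plot of gene lists, the interval of 1 left out 6.18%. Within 50 kb, 247 of 3515 were members (7.03%, 6.23 to 7.92), and the intervals of 3 lists left it out: T cell transcription factors, the CD4 lineage, and the DP stage and recombination. Whether a share stood apart from 6.18% thus depended on the distance. The values that follow are for 10 kb. At T cell transcription factors 51 of 529 regions were members (9.64%, 7.41 to 12.5), at 24 of 34 genes. The DP stage and recombination list had 17 of 185 (9.19%, 5.82 to 14.2) and the CD4 lineage list 21 of 231 (9.09%, 6.02 to 13.5). Cytokine receptors and signalling had 17 of 241 (7.05%) and TCR signalling 18 of 335 (5.37%). The CD8 list had 5 of 95 (5.26%), survival and apoptosis 6 of 114 (5.26%), DN and progenitor genes 6 of 155 (3.87%), and egress, homing and adhesion 4 of 160 (2.50%, 0.976 to 6.25). Within 50 kb, DN and progenitor genes had 17 of 286 (5.94%) and egress, homing and adhesion 18 of 314 (5.73%), near 6.18%. Survival and apoptosis had 9 of 239 (3.77%) at that distance. The lists were small, and their order was not tested.

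**Figure D5:**
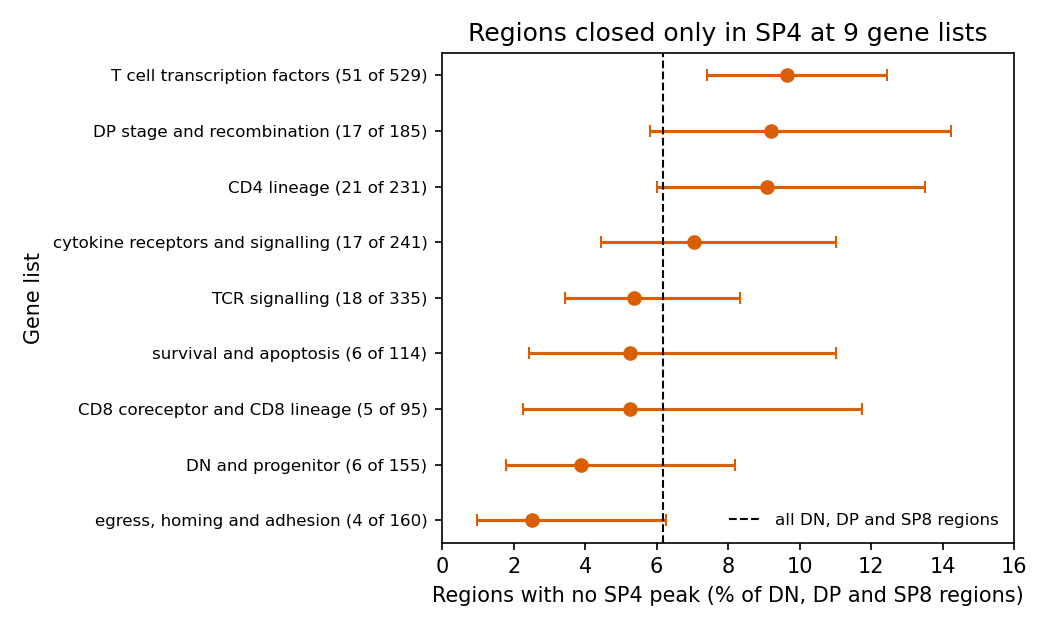
Share of regions with DN, DP and SP8 peaks that had no SP4 peak, in or within 10 kb of the genes of 9 lists, with 95% Wilson intervals. The numbers beside each list are members of all such regions, and the dashed line is the share over all regions, 6.18%. The T cell transcription factor list, at 9.64%, has an interval that leaves out the line.

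Lists of other cell types that a sort could let through held few regions. B cell genes had 1 member of 37 regions with DN, DP and SP8 peaks, myeloid genes 4 of 28, erythroid genes 3 of 23, dendritic cell genes 3 of 44, and natural killer and innate lymphoid genes 4 of 48. Gamma delta T cell genes had 1 of 35, fibroblast and endothelial genes 2 of 31, and thymic epithelial genes 0 of 27, for which the Wilson interval reaches 12.5%. The highest percentages, at myeloid (14.3%, 5.70 to 31.5) and erythroid genes (13.0%, 4.54 to 32.1), had intervals that held 6.18%. Within 50 kb, myeloid genes had 9 of 111 (8.11%), erythroid genes 8 of 75 (10.7%) and thymic epithelial genes 7 of 90 (7.78%). The part of other cells in the members was not tested. Stage markers gave 1 of 37 regions for DN, 2 of 31 for DP, 3 of 37 for SP4 and 3 of 37 for SP8.

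Zbtb7b and Runx3, regulators of the choice between the lineages, carried 2 members each. At Zbtb7b they were 2 of 19 merged regions of any kind. The member in its coding sequence (chr3:89379698-89380035) reached percentiles of 86.8 at DN, 78.4 at DP and 42.6 at SP8, with the nearest SP4 peak 987 bp away. The other (chr3:89385457-89385878), at an exon outside coding sequence, was low, at 25.4, 34.1 and 21.6. At the same gene, 8 of 19 regions were called in SP4 alone and 0 in SP8 alone, so its locus also held regions open only in SP4. The 2 members of Runx3 were both intronic, among 35 regions. The first (chr4:135131120-135131528) fell from 90.1 at DN to 52.6 at DP and 12.4 at SP8, and the second (chr4:135136435-135137012) had 74.6, 5.70 and 40.4. At Runx3, 10 regions were called in SP8 alone and 1 in SP4 alone. Cd4 had 0 members among 17 regions, Cd8a 0 of 10, Cd8b1 0 of 20 and Gata3, which acts early in the CD4 lineage, 0 of 28. Over all merged regions 2.24% are members, which gives less than 1 for each of these 4 genes, so their zeros say little. Regions in SP4 alone and in SP8 alone numbered 3 and 0 at Cd4, 2 and 1 at Gata3, 3 and 2 at Cd8b1 and 1 and 0 at Cd8a, against 13742 (7.39%) and 7831 (4.21%) over all merged regions. The matching lineage thus led clearly at Zbtb7b and Runx3, and the other genes held too few such regions to tell.

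Genes of the DP stage had members of varied height. In an intron of Themis, a regulator of TCR signalling in positive selection, a member had 62.6 at DP, 58.8 at DN and 27.5 at SP8. Tcf12, which encodes the E protein HEB, had 4 members among 20 regions with DN, DP and SP8 peaks. The share over all such regions is 6.18%. The highest Tcf12 member had 91.0 at DN, 43.7 at DP and 61.7 at SP8, with an SP4 peak 219 bp away. Members at Satb1, a chromatin organizer, and Id3, an inhibitor of E proteins, were low at SP8, with 12.8 and 6.13. Members at Dntt, the terminal transferase, and Arpp21 had a lowest percentile of 6.30 and 6.61.

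T cell transcription factors gave the longest series of members. At Lef1, a partner of beta-catenin, an intronic member (chr3:131176258-131176594) had percentiles of 56.7 at DN, 83.7 at DP and 40.5 at SP8, with an SP4 peak 356 bp away. At Nr3c1, the glucocorticoid receptor, a member had 37.6, 78.6 and 56.7. Both were highest at DP. Runx1 had 3 members among 30 regions with DN, DP and SP8 peaks. Its highest member at DP (68.3) stood at 70.7 at DN and 19.8 at SP8. Nfatc1, a factor activated by calcium signals, had 5 members among 23 regions with DN, DP and SP8 peaks, and Foxp1, which keeps T cells quiescent, had 6 among 80, which is near the share of 6.18% over all such regions. Fli1, an ETS factor, had 5 members among 25 such regions, of which the highest member had 46.0, 48.0 and 56.7. Bcl11b had 4 members among 27 such regions within 10 kb. Of these members 1 stood apart, with 54.5, 34.6 and 39.0, while the others had a lowest percentile of 0.439 to 1.81. Members at Tcf7 and Ikzf3 were low, with a lowest percentile of 10.8 and 0.201.

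Members at further genes, taken from several lists after their values were seen, included high ones and do not stand for their lists. In an intron of Arhgap15, a GTPase-activating protein for Rac, a member (chr2:44323703-44324350) had percentiles of 95.1 at DN, 71.0 at DP and 91.4 at SP8, with no SP4 peak nearer than 9825 bp. Upstream of Rasgrp1, which activates Ras after TCR signals, a member (chr2:117352375-117353041) had 56.6, 53.4 and 73.6. Both had higher peaks at SP8 than at DP. Csk, which restrains the kinase Lck, had a member at 71.5, 54.3 and 43.1. At the costimulatory receptors the values differed. A member near Cd27 had 59.2, 67.2 and 50.6, and one at Cd28 had 75.6, 71.3 and 9.34. Il6ra, a receptor chain for interleukin 6, had a member in coding sequence at 79.0, 77.98 and 40.5, and Tgfbr2, the type 2 receptor for TGF-beta, an intronic member at 78.2, 75.1 and 2.96. Bcl2, which protects cells from apoptosis, had an intronic member at 92.0, 75.7 and 37.7. Rora, a nuclear receptor, had 3 members among 36 regions with DN, DP and SP8 peaks, against a share of 6.18% over all such regions. Its highest member by the lowest percentile had 41.8, 40.5 and 60.6.

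Promoter members were lower by the median than those elsewhere, with a median lowest percentile of 12.6 against 13.9 at exons, 16.7 in introns and 18.97 between genes. Among the 10 highest at promoters of protein-coding transcripts, the lowest percentile ran from 60.1 at Prep, a peptidase, to 41.9 at Cntn1, a neuronal adhesion molecule, and at Eci3, an isomerase of fatty acid breakdown. Prep (chr10:45107417-45107656) had 71.9 at DN, 65.1 at DP and 60.1 at SP8. The Gnas promoter member, at a gene that encodes the stimulatory G protein subunit, had 46.5, 55.4 and 46.0. The promoters of Serpinb6a, Syt16, Sprn, Lypd6, Pld4 and Shisa2 lay between, with a lowest percentile of 49.7, 48.9, 46.9, 46.0, 44.8 and 42.2. Even the highest of these promoter members thus stood well under the highest intronic ones.

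A few members were much higher at SP8 than at DP. Over all members, the SP8 percentile minus the DP percentile had a median of -6.39 and was above 0 in 1511 (36.2%). An intronic member of Sipa1l1, a GTPase-activating protein for Rap, had the widest difference, 78.4, with 91.0 at SP8, 12.6 at DP and 51.7 at DN. At P2rx3, an ion channel gated by ATP, the values were 93.0, 17.6 and 91.9, so that the region was high at DN and SP8 and low at DP. The same pattern was found at Slc37a1, with 85.4, 8.17 and 72.1, and at Dnm3, a dynamin, with 78.1, 4.81 and 85.6. At Cass4, an adhesion scaffold, the peak was high at SP8 (86.5) and low at DN (11.97) and DP (19.04). In these members the peak was thus strong in SP8 cells and not called in SP4 cells. The nearest SP4 peak was only 328 bp away at Dnm3. It was 1310 bp away at Slc37a1, 4276 bp at Sipa1l1, 4603 bp at Cass4 and 5818 bp at P2rx3.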

How the data were processed

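ATAC-seq libraries of 4 thymocyte stages were analysed through 1 peak list per stage. By the paper's methods, the authors aligned reads to mm10, capped libraries at a common depth, pooled the 4 mice of a stage and ran MACS2 (5% FDR) on the pool. The fold enrichment of each peak is a ratio over the local background, as the authors deposited it. The −log10 q-value was also deposited by the authors. Depth per library was not used here, and intervals cover counting error only.

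Peaks were merged where they shared 1 bp. Genes came from GENCODE M21 and RefSeq, on mm10 (GRCm38). Distances were compared by a two-sided Kolmogorov-Smirnov test. Motifs were matched without mismatch on both strands. Intervals were Wilson and Newcombe at 95%. Python 3.11.15, numpy 2.4.6, pandas 2.3.3 and scipy 1.17.1 were used, and the code was tested on simulated data.

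Named genes are those of the 20 members with the highest lowest-of-3 percentile, genes of the lists with a member within 10 kb, the first 10 genes by number of members (ties by the highest member), the 10 highest members at promoters of protein-coding transcripts and the 10 members with the largest SP8 minus DP percentile. Not all are printed, and those given were picked from them after their values were seen. Members and lists were chosen with earlier results of these data known.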

Additional observations from a re-analysis of the deposited data

How the results depend on the processing

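Totals changed little under most other settings. For the settings on q-value, list length and merging, whether the same regions were kept was not checked. The number of regions closed only in SP4 was 4085 with a q-value of at most 0.001, 3933 with lists of equal length, 3832 when peaks up to 100 bp apart were merged, 4087 with a base shared by DN, DP and SP8 peaks and 3040 with no SP4 peak within 500 bp. The share of DN, DP and SP8 regions with no SP4 peak moved to 6.398% with lists of equal length and 5.87% with merging up to 100 bp. By q-value in place of fold enrichment, the median percentile was 46.6 at DN and 23.5 at SP8, where many tied values make the interval of the median very narrow. The promoter share was 19.3% with 1000 bp upstream, 7.33% with protein-coding transcripts and 5.56% for the summit, so it depends on the definition. The median TSS distance was 10446 bp to protein-coding transcripts and 5055.5 bp for members with no SP4 peak within 500 bp. The median GC share was 55% in 100 bp windows. Both Kolmogorov-Smirnov comparisons kept direction and side of the threshold with protein-coding transcripts and at like height. Of 384 motif values under other settings, 60 left their interval and 1 changed sign among motifs that had differed: the SP motif against regions called at all 4 stages, at 0.641 points outside promoters. The settings on the DN summit, on GC, on SP4 distance, outside promoters and, against regions closed only in SP8, on height were chosen after seeing the data. All 21 gene lists stayed within their interval at 50 kb, but there the intervals of 3 thymocyte lists left out 6.18%, against 1 at 10 kb, and the interval of the 9 lists together did so as well (7.03%, 6.23 to 7.92). By GC, the interval of CTTTGA against regions closed only in SP8 came to hold 0. No paired analysis was possible because the peak lists used here pool the 4 mice of a stage, although each mouse gave all 4 stages, and for the same reason leaving out each mouse was not run. Pooled lists give no spread between mice, and low regions near the calling threshold limit what a missing peak shows.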
